A study of Mus musculus with 12 samples.

Results

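The Wnt ligands, their receptors and their modulators were examined in hippocampal RNA of *Dek* cKO and WT mice. The genes were taken by symbol alone: every protein-coding gene named as a Wnt ligand (Wnt), a Frizzled receptor (Fzd), an R-spondin (Rspo), a secreted Frizzled-related protein (Sfrp) or a Dickkopf protein (Dkk), together with *Lrp5*, *Lrp6*, *Axin1*, *Axin2*, *Lef1* and *Tcf7*, with a value above 0 in any library. This rule took 47 of the 26409 listed genes. Expression is given in TPM, which corrects for transcript length, so levels can be compared between genes. The columns summed to between 825750 and 845553 TPM per library, the reads behind each value are not known, and each library listed 45 or 46 of the 47 genes above 0.

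The 12 libraries fall into 4 groups of 3, WT and *Dek* cKO mice of either sex, each from the hippocampus of mice that were 6 to 12 months old and had been through behavioral testing. The cKO mice carry a constitutive deletion: loxP sites around exons 3 and 4 of *Dek* were recombined by CMV-Cre, which acts in the whole body, and the transgene was bred out once the deleted allele passed through the germline. All mice have a C57Bl/6 background, and the cKO allele was kept by mating heterozygotes. The library names of the 3 female WT mice begin with C57 and those of the other 9 with CMV, so in females the name prefix and the genotype cannot be told apart. *Dek* had 44.2 to 51.9 TPM in WT and 5.55 to 9.25 TPM in cKO libraries, so the genotype labels hold in every library. The 10 markers of hippocampal neurons were all detected, with summed levels of 502 to 587 TPM in WT and 483 to 693 TPM in cKO libraries.

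The sex labels of 2 libraries go against their Y-linked transcripts. *Eif2s3y* had 72.7 TPM in the library labelled female cKO replicate 3 and 0.111 TPM in the library labelled male cKO replicate 1, against 72.4 to 92.0 TPM in male WT and 0.209 to 0.993 TPM in female WT. The study itself colors both libraries by the opposite sex elsewhere. Both were kept in the groups of their labels, and results within a sex were also computed with their sexes exchanged and with both left out. The comparison of all cKO with all WT libraries does not use sex. Separately, 2 libraries stand apart in single genes described below, female WT replicate 1 and male cKO replicate 3.

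Wnt ligands are secreted lipid-modified proteins that bind Frizzled receptors. With the co-receptors *Lrp5* and *Lrp6* they block a destruction complex built on Axin, so that β-catenin accumulates and acts with factors of the TCF/LEF family, *Lef1* and *Tcf7* among them, on target genes. R-spondins bind Lgr receptors and keep Frizzled on the cell surface by removing the ubiquitin ligases *Znrf3* and *Rnf43*, whereas Sfrp proteins bind Wnt ligands and most Dkk proteins bind *Lrp5* and *Lrp6*. In the adult hippocampus the pathway is known for its part in neurogenesis in the dentate gyrus and in synaptic maintenance. In bulk tissue, fewer cells of a type and less RNA per cell cannot be told apart.

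The genes covered a wide range of levels. Averaged over all libraries, 30 of the 47 genes reached 1 TPM, 6 reached 10 TPM, and *Wnt8a*, *Rspo4* and *Dkk4* were under 0.1 TPM and were not tested. *Dkk3*, a divergent Dickkopf that is abundant in hippocampal neurons, had by far the highest mean at 241 TPM. Next came *Axin2* at 18.4 TPM, *Lrp6* at 18.1 TPM, *Wnt7b* at 17.8 TPM, *Axin1* at 17.2 TPM and *Fzd3* at 16.0 TPM. Among the R-spondins, *Rspo3* was highest at 8.20 TPM, followed by *Rspo2* at 4.66 TPM and *Rspo1* at 1.95 TPM. In the plot of levels by role, the WT and cKO ranges overlapped for every gene.

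**Figure D1:**
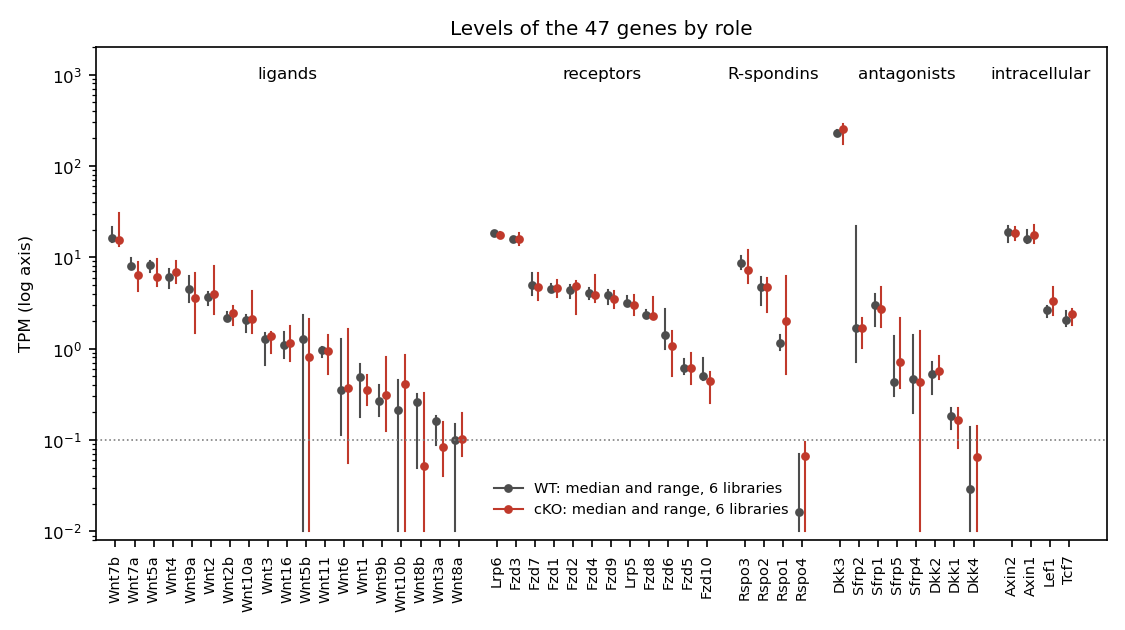
Levels of the 47 genes in TPM (log axis), ordered within each role by their mean; dots are medians and lines run from the lowest to the highest of 6 WT (gray) or 6 cKO (red) libraries, with values under 0.01 TPM drawn at 0.01 and a dotted line at the 0.1 TPM minimum for testing. *Dkk3* stands at 241 TPM on average, the 12 Frizzled and Lrp receptors lie between 0.481 and 18.1 TPM, and the WT and cKO ranges overlap for each gene.

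The first comparison asked which of these genes differ between the 6 cKO and the 6 WT libraries. None of the 44 genes tested was called, that is, had a limma adjusted p under 0.05 and a fold change over 1.2. Over all 18197 genes tested, 0.148% were called. At an unadjusted p under 0.05 there were 2 genes, *Wnt8b* and *Wnt7a*, or 4.55% of the 44, against 6.64% of all genes. No gene had 6 cKO values all above the 6 WT values, which 0.572% of all genes had, or all below them, which 0.104% had. The median log2 fold change was -0.019 over the 44 genes and 0.016 over all genes. The log2 fold change was above 0 in 20 of the 44 genes (45.5%) and below 0 in 24, whereas it was above 0 in 55.8% of all genes.

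Ligands made up 19 of the 47 genes, and 10 of them had a mean of at least 1 TPM. Their summed level was 58.8 ± 5.62 TPM (SD, n = 6) in WT and 57.7 ± 5.45 TPM (SD, n = 6) in cKO libraries, so the total differed by less than the spread between libraries. Of the 18 ligands tested, 8 were higher and 10 lower in cKO, with log2 fold changes from -0.97 (*Wnt8b*) to 0.88 (*Wnt10b*). *Wnt7b*, the most abundant ligand, which with *Wnt7a* signals from neural cells to the endothelium of the blood-brain barrier, had a log2 fold change of -0.029 ± 0.18 (SE). Its values ran from 14.7 over a median of 16.4 to 21.4 TPM in WT and from 13.2 over 15.5 to 30.7 TPM in cKO libraries. The highest value belonged to male cKO replicate 3, and the other 5 cKO libraries had at most 19.3 TPM.

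*Wnt7a* was lower in cKO at the unadjusted level. Its WT values ran from 7.39 over a median of 8.03 to 9.86 TPM (chromosome 6, 91363981 to 91411363 of GRCm38), and its cKO values from 4.28 over 6.38 to 8.98 TPM. The lowest value was that of male cKO replicate 3, and the ranges overlapped through 2 cKO libraries, male cKO replicates 1 and 2 as labelled, with 8.98 and 7.70 TPM. The log2 fold change was -0.34 ± 0.15 (SE) (adjusted p = 0.712). Without male cKO replicate 3 it was -0.22. In the 9 libraries with the CMV prefix it was -0.33 (adjusted p = 0.989). The WT libraries with that prefix are all male, the cKO libraries are of both labelled sexes, and the fit had no sex term.

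*Wnt8b*, a ligand of the embryonic cortical hem from which hippocampal patterning is organized, was near the lower limit of the measurement. Its WT values were 0.309, 0.269 and 0.247 TPM in females and 0.226, 0.0495 and 0.321 TPM in males. In cKO it had 0.0824 and 0.324 TPM in female replicates 2 and 3, had 0.102 and 0.0222 TPM in male replicates 1 and 3, and was listed at 0 in female replicate 1 and male replicate 2. Thus 5 of 6 WT libraries were above 5 of 6 cKO libraries, and 1 library of each genotype broke the order. The log2 fold change was -0.97 ± 0.42 (SE, adjusted p = 0.712). The size depends on the value added before the logarithm: with 1 TPM in place of 0.1 TPM it was -0.19. An exact 0 in a table without counts can be a failed estimate, so this fold change is no more than what the table yields. It was -0.83 without either of the libraries listed at 0. *Wnt3a*, another ligand of the hem, had at most 0.184 TPM in any library and a log2 fold change of -0.42 ± 0.28 (SE).

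*Wnt5a*, the main ligand of the β-catenin-independent branch, had the lowest p in females. Its values were 6.98, 9.06 and 7.51 TPM in female WT and 4.84, 6.39 and 5.43 TPM in female cKO libraries (chromosome 14, 28504750 to 28527448). All 3 female cKO values lay below the 3 female WT values, and the log2 fold change was -0.49 ± 0.18 (SE, adjusted p = 0.837). With 3 against 3 libraries, an exact permutation test cannot give a p under 0.1. The share of all genes separated in this way was not computed. In males *Wnt5a* had 8.24, 8.22 and 8.87 TPM in WT and 9.61, 8.02 and 5.74 TPM in cKO libraries, which overlap. With both sexes exchanged the difference in females was -0.22 (adjusted p = 0.929), because the highest of the 12 values, 9.61 TPM, then belongs to the female cKO group. With both libraries of conflicting sex left out it was -0.48 (adjusted p = 0.497).

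A few ligands varied mostly by library. *Wnt5b*, a ligand close to *Wnt5a* in sequence, was listed at 0 in female WT replicates 1 and 3, had under 0.1 TPM in female cKO replicate 1 and in male cKO replicate 2, and had 0.712 to 2.33 TPM in the other 8 libraries. *Wnt10b* was listed at 0 in female cKO replicate 3 and had under 0.001 TPM in male WT replicates 2 and 3, while the other 9 libraries had 0.213 to 0.849 TPM. The caution on exact 0s given for *Wnt8b* applies to the fold changes of both genes. *Wnt2* had 8.02 TPM in male cKO replicate 3 and 2.38 to 4.52 TPM in the other libraries. *Wnt9a*, in contrast, was lowest there at 1.47 TPM, against 3.25 to 6.64 TPM elsewhere. The same library had 1267 TPM of the astrocyte filament gene *Gfap*, against 208 to 437 TPM in the others, and its 8 astrocyte markers summed to 2816 TPM against 1833 to 2241 TPM. *Gfap* alone made that difference: the other 7 markers summed to 1549 TPM there, below the 1574 to 1805 TPM of the other libraries. Of the 8 markers, 3 were highest in that library (*Gfap*, *Aqp4* and *Fgfr3*) and 2 were lowest (*Aldoc* and *Gja1*). The part of these markers in the Wnt values of that library was not tested.

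*Wnt6* was highest in libraries with many meningeal transcripts. It had 1.66 TPM in male cKO replicate 2 and 1.29 and 1.07 TPM in female WT replicates 3 and 2, and it ran from 0.0557 to 0.688 TPM in the other 9. Those 3 libraries had 7 of the 12 markers of meningeal fibroblasts above all other libraries. Summed over the 12 markers, the level was 396, 288 and 275 TPM in those 3 and 104 to 281 TPM in the others, so the sums overlapped. The log2 fold change of *Wnt6* was -1.18 ± 0.86 (SE) in females and 0.58 ± 0.86 (SE) in males, neither past the threshold. With the sexes exchanged it was -0.40 in females and -0.20 in males, and with both libraries of conflicting sex left out -0.68 and 0.45. The part of meningeal tissue in the *Wnt6* values was not tested.

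The receptors were the most even group. The 10 Frizzled genes and both Lrp co-receptors summed to 64.6 ± 2.08 TPM (SD, n = 6) in WT and 63.1 ± 4.55 TPM (SD, n = 6) in cKO libraries. *Lrp6*, the co-receptor that transmits the signal at the membrane, varied least of all 47 genes, with a coefficient of variation of 4.34%. It had 17.7 to 19.0 TPM in WT and 16.2 to 18.7 TPM in cKO libraries, a log2 fold change of -0.062 ± 0.048 (SE). Of the 12 receptors, 4 were higher and 8 lower in cKO, and none reached p under 0.05. *Fzd6* had the largest difference, -0.54 ± 0.29 (SE), with 0.983 to 2.73 TPM in WT and 0.497 to 1.58 TPM in cKO libraries. *Fzd4* and *Lrp5*, which together serve the endothelium, had log2 fold changes of 0.082 and -0.13.

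The 4 R-spondins differed in their pattern. *Rspo3* ran from 7.37 over a median of 8.66 to 10.3 TPM in WT and from 5.22 over 7.29 to 11.9 TPM in cKO libraries. Its log2 fold change was -0.21 ± 0.16 (SE) and that of *Rspo2* was -0.072, and both overlapped between genotypes. Leaving out male cKO replicate 2 gave -0.34 for *Rspo3*, and leaving out replicate 3 of that group gave -0.10. *Rspo1* (chromosome 4, 124986430 to 125009099 on the plus strand) is the gene among these that the study selected from these same libraries, so its difference here is a description and not independent evidence. The study also measured *Rspo1* by qRT-PCR in hippocampal tissue. It reports a strong trend to higher levels in female cKO mice and no genotype difference in males. In the libraries used here, *Rspo1* had 1.31, 1.14 and 1.15 TPM in female WT and 1.40, 1.00 and 0.975 TPM in male WT, an even level. In the libraries labelled female cKO it had 6.27, 4.54 and 1.04 TPM. In those labelled male cKO it had 2.21, 1.84 and 0.522 TPM. Thus 4 cKO libraries lay above every WT library, 1 lay within the WT range and 1 below it.

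*Lef1*, the TCF/LEF factor that is also a usual target of the pathway, had its highest values in 3 of those 4 libraries. It had 2.24, 2.72 and 2.63 TPM in female WT and 2.92, 2.47 and 2.75 TPM in male WT libraries (chromosome 3, 131110471 to 131224356 on the plus strand). The libraries labelled female cKO had 4.76, 3.91 and 2.81 TPM, and those labelled male cKO had 4.17, 2.34 and 2.61 TPM. Female cKO replicates 1 and 2 and the library labelled male cKO replicate 1 therefore ranked in the first 3 places for both *Rspo1* and *Lef1*. All other libraries had at most 2.92 TPM of *Lef1*. *Axin2*, the usual readout of the pathway, had 21.2, 20.8 and 19.2 TPM in these 3 libraries and 14.9 to 22.0 TPM in the other 9, so it did not set them apart.

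**Figure D2:**
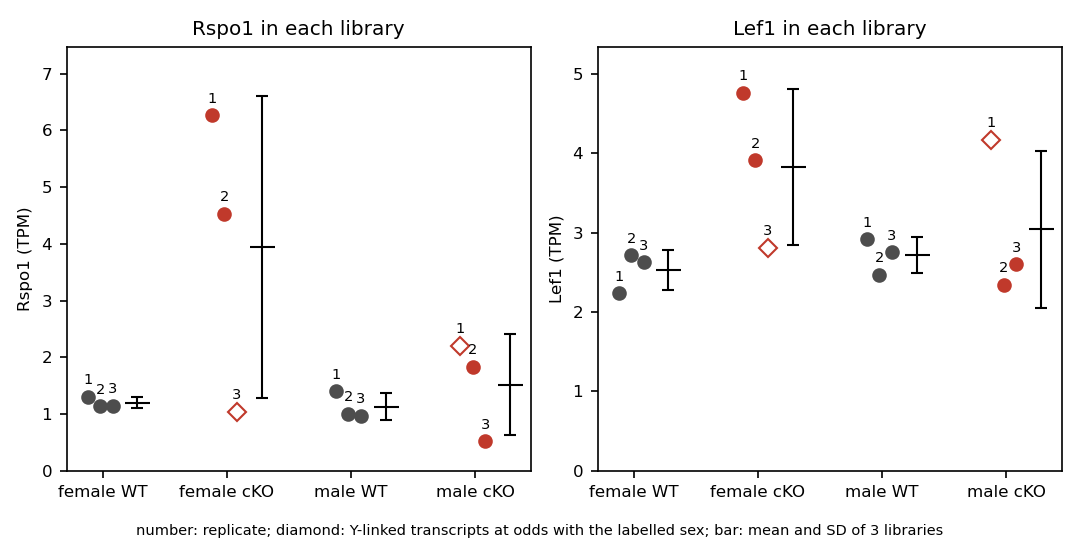
*Rspo1* (left) and *Lef1* (right) in TPM for each of 12 libraries by labelled group, with WT in gray and cKO in red; numbers are replicates, open diamonds mark the 2 libraries whose Y-linked transcripts go against the labelled sex, and bars are the mean and SD of 3 libraries. Female cKO replicates 1 and 2 and the library labelled male cKO replicate 1 are the highest for both genes, and the WT libraries stay between 0.975 and 1.40 TPM for *Rspo1* and between 2.24 and 2.92 TPM for *Lef1*.

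Because both genes were high in the same libraries, the sequence before their starts is shown, from RefSeq on GRCm38.p6, 250 bases on the plus strand, with matches to the TCF/LEF letters, CTTTG followed by 2 bases that are each A or T, on either strand in capitals. The first lies before the start of *Rspo1* (chr4:124986180-124986429), the second before the first start of *Lef1* (chr3:131110047-131110296) and the third before a start inside the *Lef1* gene, in a stretch that no annotated exon overlaps (chr3:131156044-131156293).
*Rspo1*: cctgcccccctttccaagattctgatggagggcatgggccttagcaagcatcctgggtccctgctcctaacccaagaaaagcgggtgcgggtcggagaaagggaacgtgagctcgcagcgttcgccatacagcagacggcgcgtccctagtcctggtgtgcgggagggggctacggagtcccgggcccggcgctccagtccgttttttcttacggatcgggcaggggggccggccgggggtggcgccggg
*Lef1*, first start: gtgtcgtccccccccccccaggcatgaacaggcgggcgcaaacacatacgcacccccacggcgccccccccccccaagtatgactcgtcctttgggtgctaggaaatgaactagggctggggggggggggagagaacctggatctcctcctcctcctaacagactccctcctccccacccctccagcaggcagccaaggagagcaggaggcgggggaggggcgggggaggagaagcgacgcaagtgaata
*Lef1*, inner start: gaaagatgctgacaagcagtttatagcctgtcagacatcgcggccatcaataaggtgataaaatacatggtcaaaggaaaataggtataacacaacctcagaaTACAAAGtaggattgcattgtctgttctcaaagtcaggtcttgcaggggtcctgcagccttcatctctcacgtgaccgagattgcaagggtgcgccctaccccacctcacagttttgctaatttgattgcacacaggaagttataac
The only match in these sequences lay on the minus strand, 147 bases before the inner start of *Lef1*. The bases before further *Lef1* starts (chr3:131110073-131110322 and chr3:131112541-131112790) are not shown and held no match. The table of promoter windows, each running from 250 bases before to 50 bases after a start, held 30 of the 47 genes. A match was present in 6 of the 30 (*Dkk1*, *Fzd7*, *Lef1*, *Wnt11*, *Wnt3* and *Wnt5b*), or 20%, against 18.9% of all 27025 genes in that table, so the letters were about as common as elsewhere. A match of letters is not a measured binding site. The bases before *Rspo1* were 66.8% G and C and held 22 CG pairs.

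Tested over both sexes, neither gene passed. The log2 fold change of *Rspo1* was 0.77 ± 0.46 (SE), with p = 0.119 and an adjusted p of 0.852, and a two-sided exact permutation test over all 924 arrangements of the 12 libraries gave p = 0.193. That of *Lef1* was 0.34 ± 0.17 (SE), with an adjusted p of 0.795 and an exact permutation p of 0.106. The estimate for *Rspo1* depended on single libraries, since it was 0.45 without female cKO replicate 1 and 1.12 without male cKO replicate 3. Within the 9 libraries with the CMV prefix it was 0.81 (adjusted p = 0.989). The WT libraries among these are all male, the cKO libraries are of both labelled sexes, and the fit had no sex term.

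The second comparison asked whether the difference was found in each sex. In females 0 of 44 genes were called by limma (0.0165% of all genes), and *Wnt5a* and *Lef1* reached an unadjusted p under 0.05, that is 2 genes (background 5.79%). In males 0 of 44 were called (0.0165% of all genes) and 0 reached an unadjusted p under 0.05 (background 5.45%). The difference between the sexes was tested as an interaction, the female minus the male log2 fold change, and 0 of 44 genes were called (0% of all genes) or reached an unadjusted p under 0.05 (background 4.23%). The median log2 fold change of the 44 genes was -0.003 in females and -0.011 in males, and 0.015 and 0.020 over all genes. The female and male contrasts share 1 estimate of spread but no libraries, and the interaction uses the libraries of both.

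**Figure D3:**
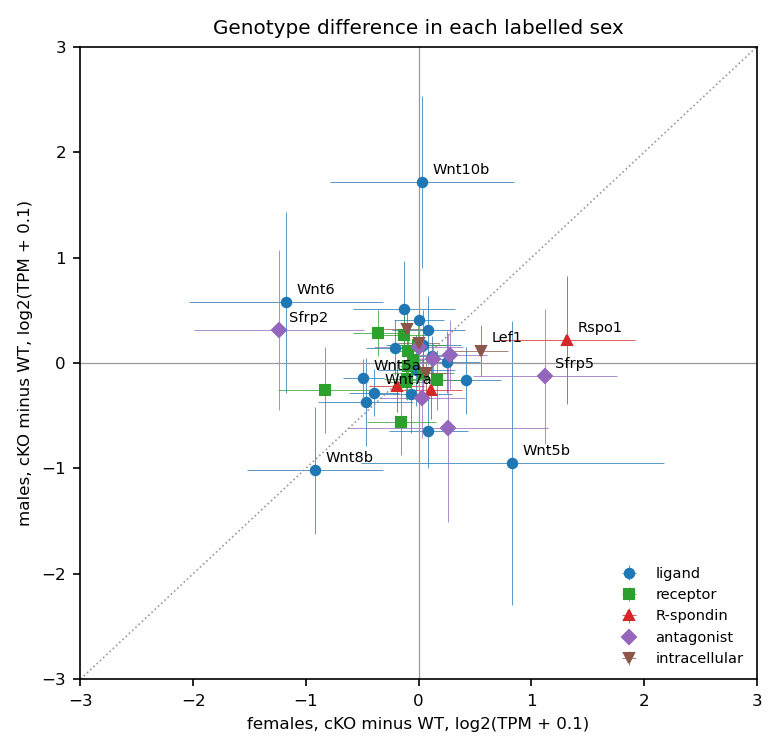
Log2 fold change (cKO minus WT, on the log2(TPM + 0.1) scale) of the 44 genes tested in labelled females (horizontal) and labelled males (vertical), with SE bars from limma, symbols by role and a dotted line of equal change. *Rspo1* lies at 1.32 in females and 0.22 in males, *Lef1* at 0.55 and 0.12, and *Wnt8b*, listed at 0 in 2 cKO libraries, at -0.92 and -1.02.

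As labelled, *Rspo1* was higher in female cKO by 1.32 ± 0.61 (SE, log2), in 2 of 3 libraries (adjusted p = 0.852). The exact permutation p was 0.4, where 0.1 is the smallest that 3 against 3 libraries allow. In males the difference was 0.22 ± 0.61 (SE), and it was negative without the library labelled male cKO replicate 1 (-0.14) or replicate 2 (-0.017). The interaction was 1.10 ± 0.86 (SE), with an adjusted p of 0.966. *Lef1* was higher in 3 of 3 female cKO libraries, by 0.55 ± 0.24 (SE, adjusted p = 0.852), and its interaction was 0.44 (adjusted p = 0.966). The exact permutation p of *Lef1* in females was 0.1, the smallest that 3 against 3 libraries allow. Without female cKO replicate 1, *Lef1* differed by 0.38 in females and by an interaction of 0.27, and *Rspo1* differed by 0.82 in females. Leaving out replicate 1 of the labelled male cKO group gave an interaction of 0.68 for *Lef1*, and leaving out its replicate 2 gave 0.28. Without female cKO replicate 3, *Rspo1* differed by 2.07 in females (adjusted p = 0.202).

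With the sexes of both conflicting libraries exchanged, the 3 high libraries form the female cKO group. *Rspo1* then had 4.34 ± 2.04 TPM (SD, n = 3) in female cKO and 1.13 ± 0.663 TPM (SD, n = 3) in male cKO mice. *Lef1* had 4.28 ± 0.436 TPM (SD, n = 3) and 2.59 ± 0.234 TPM (SD, n = 3). The log2 fold change of *Rspo1* was 1.66 ± 0.43 (SE) in females (adjusted p = 0.478) and -0.13 in males, with an interaction of 1.78 (adjusted p = 0.735). For *Lef1* it was 0.74 ± 0.15 (SE) in females (adjusted p = 0.251) and -0.068 in males, with an interaction of 0.81 (adjusted p = 0.735). None of these passed the threshold. With both libraries left out, *Rspo1* differed by 2.07 in females (adjusted p = 0.173) and -0.14 in males, and *Lef1* by 0.75 (adjusted p = 0.21) and -0.13.

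With the exchanged sexes, 0 of 44 genes were called in any of the 3 comparisons. At an unadjusted p under 0.05 there were 3 genes in females (*Lef1*, *Rspo1* and *Sfrp5*, against 6.41% of all genes), 1 in males (*Wnt7a*, against 7.99%) and 4 in the interaction (*Lef1*, *Rspo1*, *Sfrp5* and *Wnt10a*, against 6.61%). With both libraries left out, 0 of 44 were again called. An unadjusted p under 0.05 was then reached by 5 genes in females (*Lef1*, *Rspo1*, *Sfrp5*, *Wnt5a* and *Wnt8b*, against 8.69%), 2 in males (*Wnt8b* and *Wnt10b*, against 9.03%) and 3 in the interaction (*Lef1*, *Rspo1* and *Sfrp5*, against 8.83%).

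The 2 libraries with the most *Rspo1* also had the highest sums of cortex markers. Of 7 markers of cortex beyond the hippocampus, 3 (*Cux2*, *Tbr1* and *Lamp5*) were higher in female cKO replicates 1 and 2 than in all other libraries. *Cux2*, a factor of upper cortical layers, had 42.0 and 39.7 TPM in them and 16.3 to 28.2 TPM elsewhere. *Lamp5* had 72.8 and 55.9 TPM and 22.5 to 40.6 TPM elsewhere, and *Tbr1*, a factor of deep layers, had 52.1 and 41.3 TPM and 17.4 to 32.7 TPM elsewhere. The list did not move as one. *Fezf2* had 25.3 and 26.6 TPM, against 19.4 to 30.1 TPM elsewhere, and *Etv1* 56.9 and 58.5 TPM, against 41.1 to 68.4 TPM. *Foxp2* had 4.90 and 4.76 TPM, against 1.86 to 6.14 TPM, and *Rorb* 4.36 and 6.19 TPM, against 3.30 to 4.58 TPM. The 7 markers summed to 258 and 233 TPM in these libraries and to 134 to 192 TPM in the other 10. The library labelled male cKO replicate 1, next in order for *Rspo1*, had a sum of 176 TPM, within the range of the WT libraries. Female cKO replicates 1 and 2 are also the highest for *Rspo1* itself. Without them, the log2 fold change over both sexes was 0.089 for *Rspo1* and 0.15 for *Lef1*. Only replicate 3, whose Y-linked transcripts go against its label, is then left in the female cKO group. The values in females, -0.19 for *Rspo1* and 0.15 for *Lef1*, describe that library. The part of cortical tissue in the *Rspo1* values was not tested.

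*Lef1* is known as a gene of the thalamus, and thalamic markers were therefore read beside it. The 9 markers of thalamus and habenula summed to 117, 133 and 134 TPM in the 3 libraries with high *Lef1* and to 95.2 to 159 TPM in the other 9. *Tnnt1* had 11.3, 9.46 and 5.66 TPM in those 3 and 1.64 to 8.16 TPM elsewhere. *Gbx2* had 0.85, 0.592 and 0.381 TPM, against values from 0 to 0.518 TPM elsewhere. *Slc17a6*, a glutamate transporter of thalamic neurons, had 17.9, 14.5 and 10.4 TPM, against 5.96 to 11.5 TPM. These 3 were named after their values were seen, and the list did not move as one. In 6 of the 9 markers the median of the 3 libraries was above that of the other 9, and in 3 (*Lhx9*, *Calb2* and *Tac2*) it was below. *Lhx9* had its lowest values of all libraries, 5.995 and 6.57 TPM, in female cKO replicates 1 and 2. The part of thalamic tissue in the *Lef1* values was not tested.

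**Figure D4:**
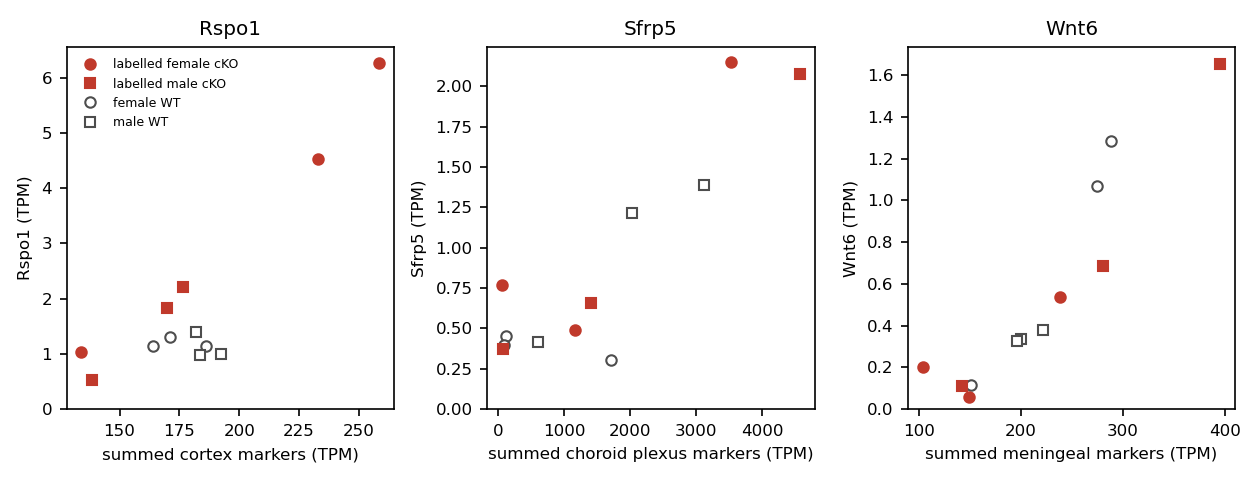
*Rspo1*, *Sfrp5* and *Wnt6* in TPM (vertical) against the summed TPM of 7 cortex, 12 choroid plexus and 12 meningeal fibroblast markers (horizontal), 1 point per library, red for cKO and open gray for WT, circles for labelled females and squares for labelled males. *Rspo1* is above 4 TPM in the 2 libraries with cortex sums of 233 and 258 TPM, *Sfrp5* is above 1 TPM in the 4 libraries with choroid plexus sums of at least 2029 TPM, and *Wnt6* is above 1 TPM in 3 libraries with meningeal sums of 275 to 396 TPM.

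The secreted antagonists were led by *Dkk3*, which unlike other Dickkopf proteins does not block *Lrp6*. It had 223 to 248.6 TPM in WT and 175 to 291 TPM in cKO libraries, a log2 fold change of 0.082 ± 0.10 (SE). Leaving out male cKO replicate 2 gave 0.18, whereas leaving out replicate 3 of that group gave 0.033 and leaving out replicate 1 of the female cKO group gave 0.035 (adjusted p of at least 0.469 with any library left out). The cKO libraries were more spread than the WT libraries, with an SD of 43.6 against 9.51 TPM. *Dkk1* and *Dkk2* stayed under 0.9 TPM in every library. Of the 7 antagonists tested, 4 were higher and 3 lower in cKO, and none reached p under 0.05.

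*Sfrp2* was set by a single library. It had 21.9 TPM in female WT replicate 1 and 0.714 to 2.19 TPM in the other 11, so its log2 fold change in females, -1.24 as labelled, -1.34 with the sexes exchanged and -1.26 with both conflicting libraries left out, describes that library. *Sfrp5* was highest in female cKO replicate 2 and the library labelled male cKO replicate 1, with 2.15 and 2.08 TPM, followed by male WT replicates 3 and 1 with 1.39 and 1.22 TPM. The other 8 libraries had 0.306 to 0.766 TPM. The same 4 libraries had the highest sums of 12 choroid plexus markers, 3527, 4571, 3122 and 2029 TPM, against 63.4 to 1710 TPM in the others. With the sexes exchanged, *Sfrp5* differed by 1.75 ± 0.47 (SE) in females (adjusted p = 0.525), and both libraries at the top of the choroid plexus markers were then in the female cKO group. As labelled the difference was 1.12 ± 0.64 (SE), or 0.57 without female cKO replicate 2, and with both conflicting libraries left out it was 1.54 (adjusted p = 0.475). The part of choroid plexus in the *Sfrp5* values was not tested.

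Inside the cell, both Axin scaffolds were level between genotypes. *Axin2* had 14.9 to 22.0 TPM in WT and 15.5 to 21.2 TPM in cKO libraries, a log2 fold change of -0.014 ± 0.12 (SE), and *Axin1* had 14.3 to 19.9 TPM and 14.4 to 22.5 TPM. *Tcf7*, the other TCF/LEF factor among these genes, had 1.76 to 2.60 TPM in WT and 1.82 to 2.71 TPM in cKO libraries.

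**Figure D5:**
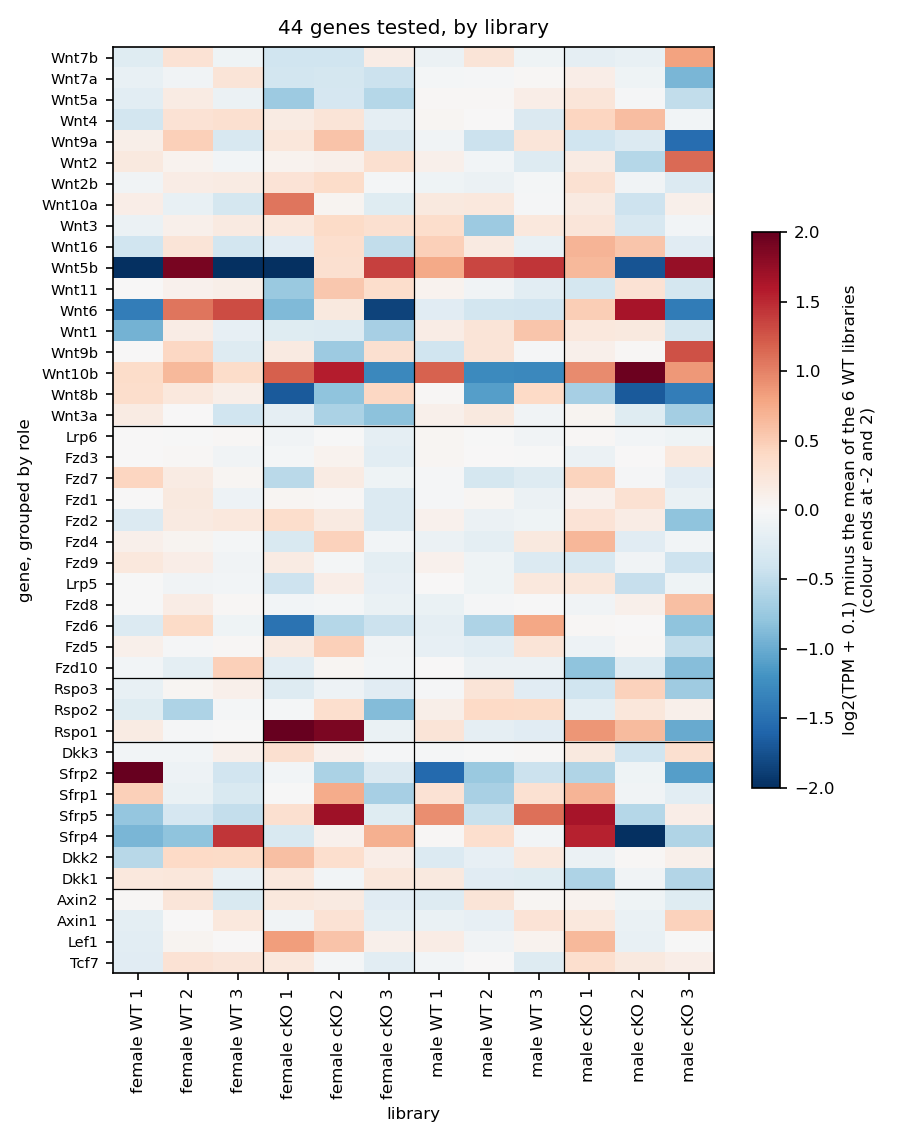
Deviation of each of the 44 genes tested (vertical, grouped by role) from its mean over the 6 WT libraries, on the log2(TPM + 0.1) scale, in each of the 12 libraries (horizontal, by labelled group); colors end at -2 and 2. Most receptors are pale, with *Fzd6* in female cKO replicate 1 the farthest from WT at -1.47, *Rspo1* is dark in female cKO replicates 1 and 2, *Sfrp2* in female WT replicate 1, and *Wnt5b* and *Wnt10b* swing with single libraries in both genotypes.

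The rest of the pathway was read from lists of 67 further genes, all of which were tested: membrane and secretion genes, secreted modulators outside the symbol rule, intracellular components and usual target genes. None of the 67 was called in any comparison. Over both sexes 0 of the 67 reached an unadjusted p under 0.05 by limma, against 6.64% of all genes. Their median log2 fold change was -0.013, against 0.016 over all genes. In females 1 of the 67 was higher and 1 lower at p under 0.05, against 5.79% of all genes in either direction. In males 1 was higher (background 5.45%), and in the interaction 1 was lower (background 4.23%). *Tcf7l2*, a TCF/LEF factor that is also a thalamic marker, was higher in female cKO by 0.70 ± 0.28 (SE, adjusted p = 0.845). It had 7.19, 10.1 and 7.88 TPM in female cKO against 6.17, 4.66 and 4.52 TPM in female WT libraries, without overlap as labelled. The share of all genes separated in this way was not computed. With the sexes exchanged the library with 5.73 TPM joins the female cKO group, the groups overlap, and the difference was 0.55 (adjusted p = 0.867). With both conflicting libraries left out it was 0.74 (adjusted p = 0.431).

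*Vangl1*, a membrane protein of planar cell polarity, was lower in female cKO by -0.65 ± 0.26 (SE, log2), with an adjusted p of 0.845. Its values were 3.37, 4.36 and 4.51 TPM in female WT and 1.98, 2.93 and 2.81 TPM in female cKO libraries, without overlap as labelled. Here too the share of all genes so separated was not computed. In males *Vangl1* had 2.498, 4.05 and 2.10 TPM in WT and 3.80, 3.44 and 4.90 TPM in cKO libraries, and the interaction was -1.17 ± 0.36 (SE, adjusted p = 0.966). With the sexes exchanged the female groups overlap, the difference in females was -0.51 and the interaction was -0.89 (adjusted p = 0.771). With both conflicting libraries left out these were -0.73 and -1.27 (adjusted p = 0.471). *Kremen1*, a *Dkk1* receptor, was higher in male cKO by 0.29 ± 0.12 (SE, adjusted p = 0.88), with 13.9 TPM in male cKO replicate 3 and at most 11.0 TPM in the other libraries. Without that library the difference was 0.14, with the sexes exchanged 0.25 and with both conflicting libraries left out 0.31 (adjusted p = 0.57). Of the usual targets, *Lef1* was the only one of 15 with p under 0.05 in any comparison.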

How the data were processed

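Hippocampal RNA of 12 mice (3 per sex and genotype, grouped by their labels) was sequenced. The authors deposited TPM values, 1 column per library and no counts. The study's methods name STAR and Salmon on GRCm38, whereas the submitters' processing notes name kallisto and mm10. Which made the table is not given in the sources used here. Transcripts of closely related genes can be split by such quantification, and single reads and depth cannot be recovered from TPM. The labels give replicates as separate samples and say no more of the mice, so p-values measure the spread between these samples.

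Of the 26409 Ensembl IDs, 25245 were in GENCODE M21. The 18197 genes averaging 0.1 TPM or more were tested on log2(TPM + 0.1) with limma (version 3.58.1, R 4.3.3), two-sided, with a trended prior variance and Benjamini-Hochberg adjustment over all genes. Fold changes of low genes are understated on this scale. The comparison over both sexes used 2 groups, and sexes and interaction used 1 fit of 4 groups. The study's count test could not be run on TPM. Named in full are *Rspo1*, every gene with p under 0.05 in any comparison and the most abundant gene of each role. Others were named after their values were seen. The genes, lists and tests were chosen with earlier results of these data known. The steps were tested on simulated data. Alternatives changed the added value, the filter, the scaling, the prior, a sex term, a block on replicate number, the sexes of 2 libraries and the libraries used. Python 3.11.15 made tables and figures.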

Additional observations from a re-analysis of the deposited data

Results flagged for a closer look

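In groups of 6 libraries, Dixon's gap test at the 95% level marked 10 of the 94 groups (47 genes in each genotype). Chance marks about 1 in 20 groups, so some of the 10 may be chance, and the groups share libraries. Male cKO replicate 3 was far above the other cKO libraries for 3 genes, *Wnt7b* (30.7 TPM, next 19.3 TPM), *Fzd8* (3.63 TPM, next 2.55 TPM) and *Wnt9b* (0.80 TPM, next 0.364 TPM). Female WT replicate 3 was far above the other WT libraries for *Sfrp4* (1.42 TPM, next 0.610 TPM) and *Fzd10* (0.793 TPM, next 0.542 TPM). Female WT replicate 1 stood apart for *Sfrp2*, with 21.9 TPM against at most 2.14 TPM in the other WT libraries. Male WT replicate 3 was highest for *Lrp5* (3.78 TPM, next 3.26 TPM), and female cKO replicate 1 for *Wnt10a* (4.27 TPM, next 2.27 TPM). *Wnt8b* was marked in both genotypes, with 0.0495 TPM in male WT replicate 2 below the other WT libraries and 0.324 TPM in female cKO replicate 3 above the other cKO libraries. No interaction passed the threshold.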

How the results depend on the processing

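None of the 44 genes was called in any comparison under any of the 27 other settings, and the lowest adjusted p was 0.173 (*Rspo1* in females without both libraries of conflicting sex). Of 815 recomputed values, 750 were scored as the same, 18 as reversed in direction and 47 as moved without a reversal. Medians of the genes that crossed 0 with single libraries left out were not scored as reversed. The cause of the exceptions was not tested. *Rspo1* in males was -0.13 with the sexes exchanged and -0.14 without both libraries of conflicting sex. Without both libraries highest in cortex markers, chosen after seeing the data, *Wnt7b* over both sexes was 0.16. Only female cKO replicate 3, a library of conflicting sex, is left in its group under that setting. *Rspo1* was then -0.19 in females with an interaction of -0.40. The median of the 44 genes was then -0.20 in females and -0.16 in the interaction. *Axin2* over both sexes was 0.018 without both libraries of conflicting sex and 0.036 without both libraries that stand apart, also chosen after seeing the data.

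With single libraries left out, *Rspo1* ranged from 0.45 to 1.12 over both sexes, 0.82 to 2.07 in females, -0.14 to 0.80 in males and 0.51 to 1.85 in the interaction. *Axin2* ranged from -0.074 to 0.038 and *Wnt7b* from -0.20 to 0.045 over both sexes. The median of the genes ranged from -0.061 to 0.027 over both sexes, -0.13 to 0.005 in females, -0.13 to 0.033 in males and -0.075 to 0.095 in the interaction. Leaving out male cKO replicate 2 gave 6 of the 44 genes with an unadjusted p under 0.05 over both sexes, against 7.87% of all genes. In males it gave 5 of the 44, against 9.58% of all genes.

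Libraries of the same number did not deviate together (correlations from -0.038 to 0.045). The labels do not say whether the numbers pair libraries, and correlations from so few libraries per group cannot settle it. With the replicate block 0 of the 44 genes were called, *Rspo1* was 0.77 over both sexes (adjusted p = 0.817) and 1.32 in females (adjusted p = 0.903). Over all genes, the 27 called over both sexes became 3 with the block, 10 in the CMV libraries alone and 10 to 36 under the other settings. The 3 called in females became 1 to 10, the 3 in males 1 to 7, and the 0 in the interaction 0 to 3. These 3 ranges leave out the setting with only replicate 3 in the female cKO group. TPM keeps no depth, which limits what can be said of genes under 0.1 TPM.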
